A study of Mus musculus with 10 samples.

Results

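Lipid carriage in the medial prefrontal cortex was followed through 9 genes: the carriers Apoe, Clu and Apod, the export, hydrolysis and uptake genes Abca1, Lpl and Lrp1, and the intracellular binding proteins Fabp7, Fabp5 and Dbi. They were picked by symbol out of 30406 genes shared by the gene lists of all 10 libraries, and all 9 were found. Their counts by cell type and by rank were known when they were picked, so their levels are a description with no test. The tests by rank are given for them out of fits across all genes, except a test between classes made on the 9 alone.

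In the brain, lipids pass between cells on particles built around apolipoproteins, and apolipoprotein E, secreted mostly by astrocytes, is the main one. ABCA1 in the cell membrane loads cholesterol and phospholipid onto these particles, lipoprotein lipase frees fatty acids from lipoprotein triglycerides, and receptors such as LRP1 take the particles up. Inside cells, FABP7 and FABP5 hold long-chain fatty acids and DBI holds their acyl-CoA esters.

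The cells came from male C57BL/6N mice, over 2 months old, whose social rank had been read from a tube test, in which mice meet head-on in a tube and the one that backs out loses. Rank 1 (the top of the order) and rank 4 were each sequenced as 5 droplet libraries, numbered 1 to 5 in both ranks. Each library pooled punches from 2 to 3 mice, taken 1 day after the last test and dissociated with papain, so values per mouse cannot be had and a library is the replicate. No label names a transgene, a drug or an unranked group, and both ranks went through the same test, punching and dissociation.

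The 10 libraries held 4442750 to 29278466 unique molecular identifiers (UMIs, the counted RNA molecules), and 46898 of 64937 barcodes (72.2%) passed the filters on genes, mitochondrial UMIs and doublets. The library of rank 4, replicate 1 stood apart: it kept 47.1% of its barcodes, its kept cells had a median of 10.8% mitochondrial UMIs (the lowest library had 3.49%), and the calls by rank are given with and without it. No pair of libraries shared more than 104 barcodes (1.70% of the smaller library). Clusters were named from marker genes with the 9 genes left out of the clustering, and the markers of each named class were present in it; 1725 cells stayed unnamed. Excitatory neurons (16553 cells) and astrocytes (9168) were the most numerous, while committed oligodendrocyte precursors (313), fibroblasts (118) and perivascular macrophages (110, led by Ccl7, Lyz2, Cxcl2, Pf4 and Ccl2) were few. Erythroid cells (330), which should hold next to none of these mRNAs, served to show the level that free RNA in the droplets can give. They reached 20 cells in 3 libraries, rank 1 replicate 1 (102 cells), rank 4 replicate 5 (34) and rank 4 replicate 1 (151), and erythroid levels are given in this order, so that the last can be left out.

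On the GRCm38 mouse genome with GENCODE M21 annotation, the carriers are Apoe (ENSMUSG00000002985, chromosome 7, 19696109 to 19699188, minus strand), Clu (ENSMUSG00000022037, chromosome 14, 65968483 to 65981547, plus strand) and Apod (ENSMUSG00000022548, chromosome 16, 31296192 to 31314808, minus strand). The genes of export, hydrolysis and uptake are Abca1 (ENSMUSG00000015243, chromosome 4, 53030787 to 53159895, minus strand), Lpl (ENSMUSG00000015568, chromosome 8, 68880491 to 68907448, plus strand) and Lrp1 (ENSMUSG00000040249, chromosome 10, 127538161 to 127621148, minus strand). The intracellular binding proteins are Fabp7 (ENSMUSG00000019874, chromosome 10, 57784881 to 57788450, plus strand), Fabp5 (ENSMUSG00000027533, chromosome 3, 10012548 to 10016607, plus strand) and Dbi (ENSMUSG00000026385, chromosome 1, 120113280 to 120121078, minus strand). All 9 are protein-coding, values count whole genes and not single exons, and the interval of Lrp1 overlaps Gm16217 on the other strand. Fabp5 has 1 pseudogene of like name in the annotation, so part of its reads could belong to that copy.

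The 250 bases before a transcription start were read for Apoe, Apod and Abca1, which, among the classes with values from at least 3 libraries, stood highest in astrocytes, oligodendrocytes and microglia, so that their start regions can be set beside that difference (RefSeq, GRCm38.p6, 5′ to 3′ on the gene's strand, with motif letters in capitals). For Apoe the outermost of 3 starts in RefSeq is shown.
Apoe chr7:19699189-19699438 (minus strand): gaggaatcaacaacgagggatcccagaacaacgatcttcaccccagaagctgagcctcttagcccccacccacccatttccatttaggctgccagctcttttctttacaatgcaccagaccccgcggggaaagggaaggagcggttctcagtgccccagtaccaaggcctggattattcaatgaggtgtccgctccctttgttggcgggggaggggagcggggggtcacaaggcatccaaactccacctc
Apod chr16:31314809-31315058 (minus strand): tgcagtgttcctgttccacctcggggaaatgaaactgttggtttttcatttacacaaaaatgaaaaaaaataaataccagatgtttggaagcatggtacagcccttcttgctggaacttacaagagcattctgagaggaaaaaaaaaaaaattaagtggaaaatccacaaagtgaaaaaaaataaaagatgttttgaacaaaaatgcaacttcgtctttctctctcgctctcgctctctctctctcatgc
Abca1 chr4:53159896-53160145 (minus strand): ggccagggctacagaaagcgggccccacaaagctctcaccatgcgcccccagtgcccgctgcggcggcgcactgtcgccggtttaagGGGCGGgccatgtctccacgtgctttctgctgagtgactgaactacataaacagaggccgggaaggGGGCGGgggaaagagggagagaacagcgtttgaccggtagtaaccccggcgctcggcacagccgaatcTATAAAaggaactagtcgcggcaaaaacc

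The stretch before Abca1 is 61.6% G and C and holds the GC box GGGCGG at 2 places and the TATA box TATAAA at 1 place. The stretch before Apod is 36.4% G and C and that before Apoe 57.2%, and neither of these 2 stretches holds any of the 6 motifs searched on both strands. The stretches before the other 2 Apoe starts do: that before the middle start (19698622 to 19698871) has TATAAA at 2 overlapping places, once on each strand, and the other (19698399 to 19698648) has TTGGCA at 1 place. Of 32851 RefSeq stretches of the same length, 32.7% hold the GC box GGGCGG, 12.4% the TATA box TATAAA, 14.0% the nuclear receptor site AGGTCA, 12.3% the NFI site TTGGCA, 6.75% the AP-1 site TGANTCA and 9.42% the SOX site AACAAT, and no 2 of these motifs overlap in the stretches shown. Stretches were matched for 6 of the 9 genes and not for Clu, Lpl and Fabp5. A match here is a string of letters and not a bound site.

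The 9 genes were highest in different cell classes, from Clu, which stood apart in astrocytes, to Abca1, which was spread over several. Levels are UMIs of the gene per 1000000 UMIs (CPM) summed over the cells of a class in a library, for libraries with at least 20 such cells, as mean ± SD over libraries. They are compared within a gene across classes. Fibroblasts and perivascular macrophages reached 20 cells in 2 libraries only, so their cells were pooled, with an exact 95% Poisson interval that covers counting error only.

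**Figure D1:**
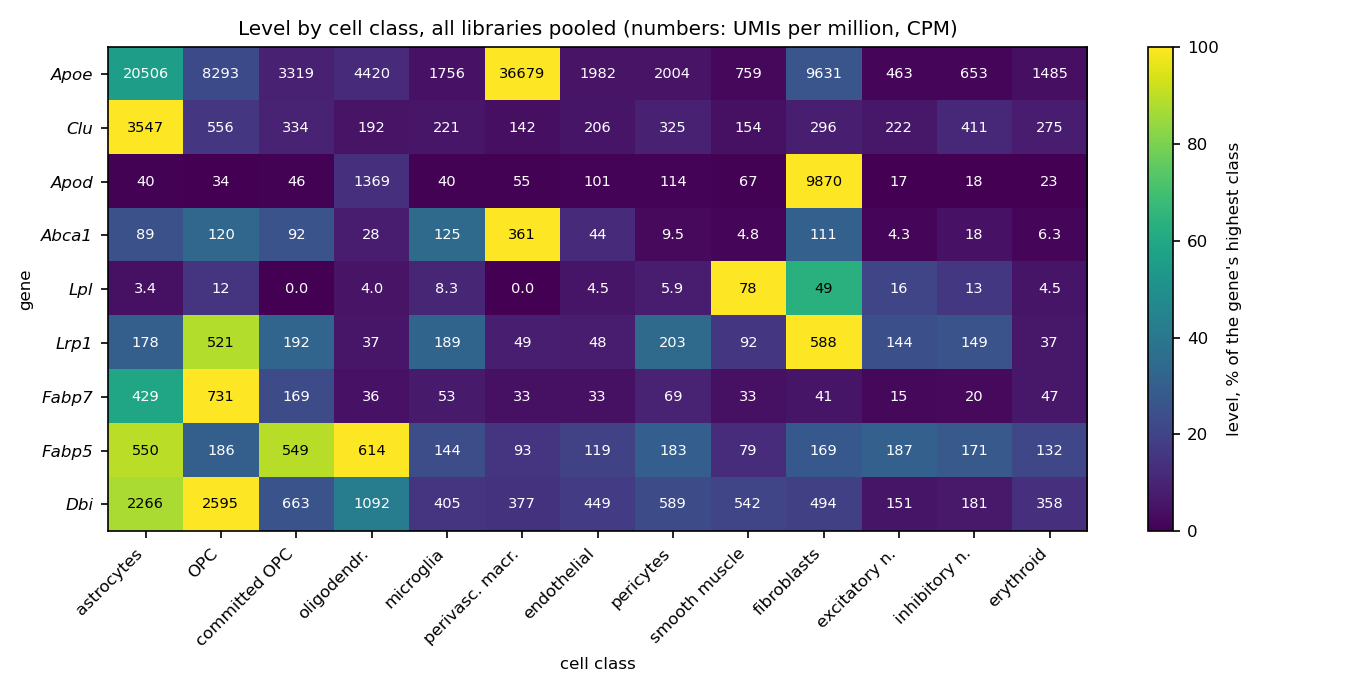
Heatmap of the pooled level of the 9 genes (rows) in the named classes (columns), shaded by the percent of the gene's highest class, with the CPM printed in each cell. Apoe and Abca1 are highest in perivascular macrophages, Clu stands out in astrocytes, Apod in fibroblasts and oligodendrocytes, and Fabp7 and Dbi in oligodendrocyte precursors and astrocytes.

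Apoe, the main apolipoprotein of brain lipoproteins, was highest among the replicated classes in astrocytes. Its level there was 17836, 24287, 25929, 21681 and 20844 CPM in rank 1 replicates 1 to 5 and 14947, 21624, 21958, 18946 and 27015 CPM in rank 4 replicates 1 to 5, a mean of 21507 ± 3672 CPM (SD, n = 10). The lowest library was rank 4 replicate 1 and the highest rank 4 replicate 5, and the ranks overlapped. Oligodendrocyte precursors followed at 8171 ± 1930.1 CPM and oligodendrocytes at 4242 ± 832 CPM (both n = 10), and each of these steps down was larger than the SD of both classes. Committed precursors held 3255 ± 901 CPM (SD, n = 7). Below them, neighbours in the order did not all differ beyond their spread. Endothelial cells held 1847 ± 321 CPM, microglia 1645 ± 402 CPM, pericytes 1591 ± 719 CPM and erythroid cells 955, 1779 and 1525 CPM in their 3 libraries, so these classes lay near the erythroid level. Inhibitory neurons (569.5 ± 422 CPM) and excitatory neurons (413 ± 298 CPM) were lowest. Pooled perivascular macrophages reached 36679 CPM (interval 35806 to 37567), above the highest astrocyte library, and pooled fibroblasts 9631 CPM (interval 9245 to 10029). Astrocytes were 19.5% of all kept cells and held 68.2% of the 501961 Apoe UMIs (per library, 71.1% ± 7.22, SD, n = 10).

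Clu, clusterin, a secreted chaperone that also rides on lipoproteins, stood far higher in astrocytes than in any other class. Rank 1 libraries held 3474, 5169, 5566, 2984 and 3191 CPM in astrocytes and rank 4 libraries 2957, 4462, 4724, 2859 and 3225 CPM, a mean of 3861 ± 1018 CPM (SD, n = 10). Replicates 2 and 3 of both ranks were the highest, and the ranks overlapped. The next class, oligodendrocyte precursors, held 536 ± 98.7 CPM, and inhibitory neurons 420.3 ± 175 CPM, a pair that did not differ beyond its spread. Astrocytes held 69.0% of the 85795 Clu UMIs (per library, 71.3% ± 9.82, SD, n = 10).

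Apod, apolipoprotein D, a lipocalin that binds arachidonic acid and other small lipids, was highest in fibroblasts and, among replicated classes, in oligodendrocytes. Pooled fibroblasts held 9869.5 CPM (interval 9479 to 10273). Oligodendrocytes of rank 1 held 731, 1057, 2340.2, 1047 and 1584 CPM and those of rank 4 1094, 1425, 1761, 1604 and 1062 CPM, a mean of 1370.5 ± 469 CPM (SD, n = 10). Rank 1 had both the lowest and the highest library. Pericytes (121 ± 49.9 CPM) and endothelial cells (99.7 ± 19.2 CPM) were 11.4-fold and more below oligodendrocytes, and astrocytes (29.5 ± 23.8 CPM) were close to erythroid cells (25.1, 29.2 and 22.7 CPM). Oligodendrocytes held 45.2% and the 118 fibroblasts 21.1% of the 11377 Apod UMIs. Unlike Apoe, Apod stayed low in precursors (29.8 ± 24.3 CPM) and committed precursors (48.5 ± 12.3 CPM, n = 7).

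Abca1, the exporter that loads apolipoproteins with cholesterol, was spread over macrophages, glia and precursors. Microglia held 104, 74.3, 80.1, 321 and 210.4 CPM in rank 1 and 107, 104, 54.8, 145 and 154 CPM in rank 4, a mean of 135 ± 79.2 CPM (SD, n = 10). Rank 1 replicate 4 was the highest library, and the ranks overlapped. Oligodendrocyte precursors (119 ± 34.7 CPM), committed precursors (96.3 ± 38.8 CPM, n = 7) and astrocytes (91.7 ± 46.8 CPM) followed, and none of these 4 classes differed from its neighbour beyond the spread. Oligodendrocytes held 20.7 ± 19.5 CPM and excitatory neurons 3.64 ± 1.62 CPM. Pooled perivascular macrophages held 361 CPM (interval 279 to 459). Astrocytes gave 35.6% of the 4174 Abca1 UMIs.

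Lpl, the lipase that frees fatty acids from lipoproteins, was the least abundant of the 9 in UMIs. Smooth muscle cells were highest, with 124, 75.8, 46.7 and 119 CPM in the 4 rank 1 libraries that had enough cells and 90.5, 93.2, 74.4 and 29.5 CPM in the 4 of rank 4, a mean of 81.5 ± 32.4 CPM (SD, n = 8). Pooled fibroblasts held 49.4 CPM (interval 25.5 to 86.2). Excitatory neurons held 18.8, 21.8, 15.2, 18.0 and 15.9 CPM in rank 1 and 18.6, 15.2, 14.6, 17.4 and 12.7 CPM in rank 4, a mean of 16.8 ± 2.61 CPM (SD, n = 10). The libraries were close together there, with the lowest in rank 4 (replicate 5) and the highest in rank 1 (replicate 2), and the ranks overlapped. Inhibitory neurons (12.4 ± 4.73 CPM) and oligodendrocyte precursors (11.9 ± 7.14 CPM) did not differ from them beyond their spread, and astrocytes held 2.53 ± 2.09 CPM. Excitatory neurons, 35.3% of all kept cells, gave 65.5% of the 1384 Lpl UMIs. No Lpl UMI was seen in perivascular macrophages or committed precursors, which allows up to 20.2 and 5.32 CPM.

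Lrp1, the receptor that takes up Apoe particles and many other ligands, was highest in fibroblasts and oligodendrocyte precursors. Precursors of rank 1 held 509, 341, 358, 789.6 and 649.5 CPM and those of rank 4 490.2, 337, 315, 709 and 582 CPM, a mean of 508 ± 171 CPM (SD, n = 10). In all 5 pairs of like number the rank 1 library was the higher, by less than the spread between numbers, and replicates 2 and 3 were the lowest in both ranks. Pooled fibroblasts held 588 CPM (interval 496 to 693). Committed precursors (196 ± 76.9 CPM, n = 7), pericytes (192 ± 81.3 CPM), microglia (184 ± 91.9 CPM) and astrocytes (177 ± 48.1 CPM) followed without differing beyond their spread. Oligodendrocytes were at 27.5 ± 18.7 CPM, within the erythroid range (10.1, 102 and 26.5 CPM). Excitatory neurons, at 131 ± 24.8 CPM, gave 43.6% of the 18417 Lrp1 UMIs.

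Fabp7, the brain fatty acid-binding protein of radial glia, astrocytes and precursors, was highest in oligodendrocyte precursors. Rank 1 libraries held 638, 1301, 1471, 646 and 442 CPM and rank 4 libraries 551, 1384, 1244, 388 and 656 CPM, a mean of 872 ± 424 CPM (SD, n = 10). Astrocytes held 536, 538, 698, 268 and 206 CPM in rank 1 and 354, 677, 964, 173 and 239 CPM in rank 4, a mean of 465 ± 261 CPM (SD, n = 10). In both classes replicates 2 and 3 were the highest of their rank. The gap between the class means was within the SD, though precursors were above astrocytes in every library. Committed precursors held 191 ± 127 CPM (n = 7), and oligodendrocytes, at 34.9 ± 25.9 CPM, were within the erythroid range (55.3, 29.2 and 49.1 CPM). Astrocytes gave 50.0% and oligodendrocyte precursors 32.1% of the 14340 Fabp7 UMIs.

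Fabp5, a fatty acid-binding protein found in many cell types, differed from Fabp7 in the mature lineage. Astrocytes held 535, 246, 269, 482 and 671 CPM in rank 1 and 541, 267, 342, 559 and 870.2 CPM in rank 4, a mean of 478 ± 202 CPM (SD, n = 10). Oligodendrocytes held 215, 269.8, 260.0, 645 and 667 CPM in rank 1 and 415, 280.4, 273, 718 and 916 CPM in rank 4, a mean of 466 ± 249 CPM (SD, n = 10). Replicates 2 and 3 were the lowest of their rank in astrocytes, replicates 4 and 5 the highest in oligodendrocytes, and rank 1 was the lower in each pair of like number in both. Committed precursors held 479 ± 379.7 CPM (SD, n = 7), with 1242 CPM in the single library of over 50 such cells, and the 3 classes did not differ beyond their spread. Oligodendrocyte precursors were at 162 ± 110.5 CPM, beside 87.9, 277 and 134 CPM in erythroid cells. Within those 3 libraries, Fabp5 was 1.02 to 1.84 times the erythroid level in these precursors, the class where Fabp7 was highest. Excitatory neurons, at 156 ± 57.2 CPM and so within the erythroid range, gave 36.9% of the 28308 Fabp5 UMIs.

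Dbi, the acyl-CoA-binding protein whose peptide also acts on GABA-A receptors, was high in the same glia as Fabp7. Oligodendrocyte precursors held 1761, 4159.9, 4600.1, 1649 and 1459 CPM in rank 1 and 2201, 4406, 4682, 1288 and 3023 CPM in rank 4, a mean of 2923 ± 1413 CPM (SD, n = 10). Astrocytes held 1788, 3849, 4358, 863 and 1448 CPM in rank 1 and 1925, 3877, 4918, 1002 and 1845 CPM in rank 4, a mean of 2587 ± 1499.5 CPM (SD, n = 10). Replicates 2 and 3 of both ranks were the highest in both classes, and the classes did not differ beyond their spread. Oligodendrocytes held 1327 ± 759.6 CPM, committed precursors 659 ± 296 CPM (n = 7), excitatory neurons 152 ± 89.2 CPM, and erythroid cells 209, 248 and 467 CPM. Astrocytes gave 47.3% and precursors 20.4% of the 79975 Dbi UMIs.

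**Figure D2:**
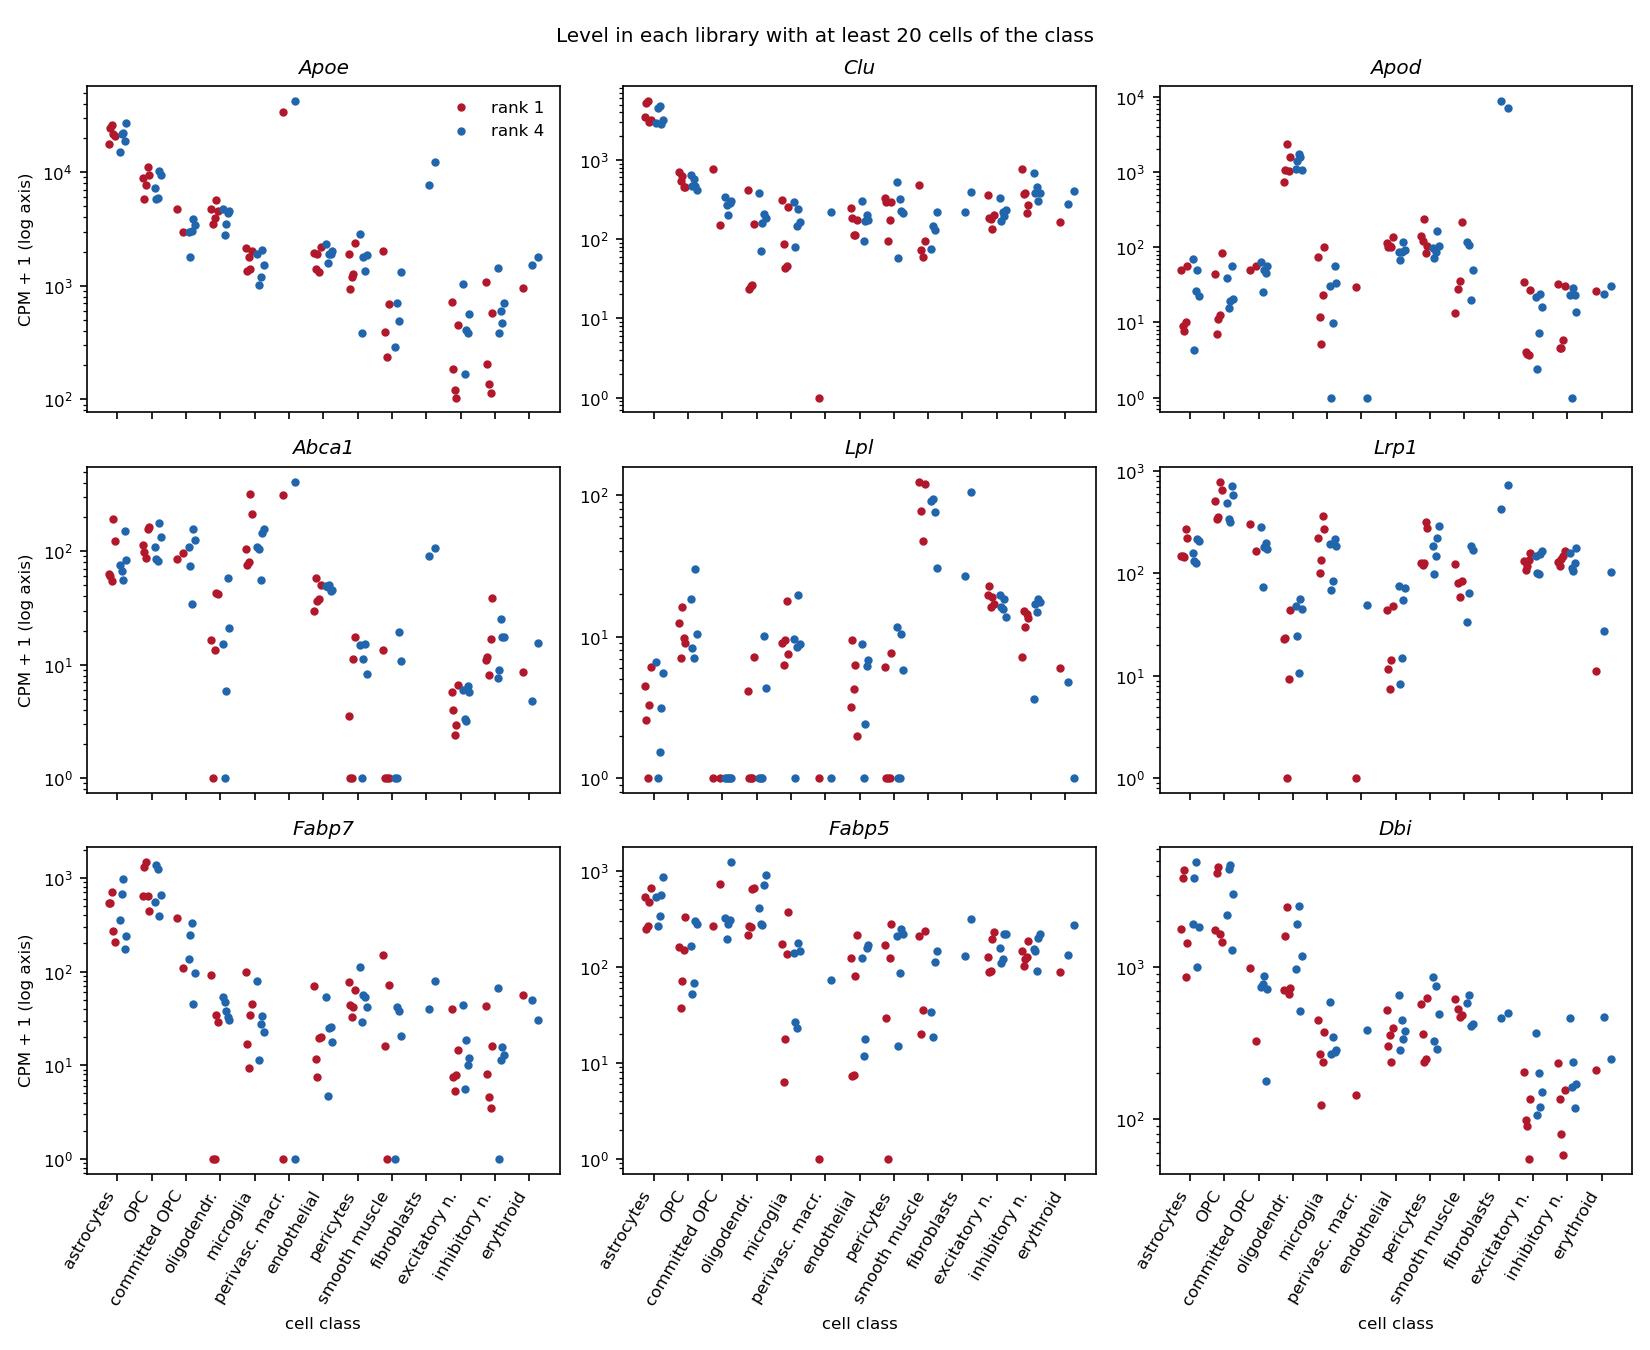
Level of each of the 9 genes (CPM + 1, log axis) in every named class, with 1 point per library of at least 20 cells, rank 1 and rank 4 in separate colours. The ranks lie over each other in the classes where a gene is high, as for Apoe in astrocytes.

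Counted per cell, Apoe was seen in nearly every astrocyte and oligodendrocyte precursor. With each cell thinned to 1000 UMIs and shallower cells left out, 99.7% of astrocytes and 99.3% of oligodendrocyte precursors had an Apoe UMI, beside 67.1% of erythroid cells, 67.6% of microglia and 37.1% of excitatory neurons. Before thinning the shares were 99.7%, 99.4%, 93.3%, 76.7% and 65.7%, at median depths of 1495, 1614, 2582, 1287 and 2408 UMIs. The share in excitatory neurons was below the erythroid share, also without rank 4 replicate 1 (61.8% of thinned erythroid cells). It ran from 13.1% to 68.7% over 10 libraries, while the erythroid cells came mostly from 3, and the part of free RNA in it was not tested. The share in microglia was close to the erythroid share, and with rank 4 replicate 1 left out of both it was 63.5%. Clu was seen in 90.9% of thinned astrocytes (93.3% before thinning) and 26.6% of erythroid cells (47.9%), beside 40.1% of precursors and 32.1% of inhibitory neurons (53.9% and 58.4% before thinning, with median 2791 UMIs in the latter). Excitatory neurons (19.2%, and 42.3% before thinning), microglia (17.6% and 25.3%) and oligodendrocytes (14.3% and 21.4%) were below the erythroid share, and no order is read among them. Compared within a library, their Clu levels were 0.565 to 2.15, 0.401 to 1.89 and 0.451 to 2.49 times the erythroid level. Each class was above it in 2 of 3 libraries (1 of 2 without rank 4 replicate 1). Apod was seen in 67.7% of thinned oligodendrocytes (73.9% before thinning, median 1297 UMIs) and 3.80% of erythroid cells (7.27%), while astrocytes (3.31% thinned and 5.62% before), precursors (2.76% and 5.52%) and excitatory neurons (2.19% and 5.29%) were all at or below the erythroid share. Fabp7 was seen in 45.2% of thinned precursors (54.4%) and 4.75% of erythroid cells (14.8%). Dbi was seen in 81.2% of thinned precursors (82.1%), 76.5% of astrocytes (81.8%) and 30.4% of erythroid cells (56.4%). Without rank 4 replicate 1 the thinned erythroid shares were 29.1% for Clu, 3.64% for Apod, 7.88% for Fabp7 and 25.5% for Dbi. Within the 3 libraries with enough erythroid cells, the Apoe level was 9.80 to 18.7 times the erythroid level in astrocytes, 4.73 to 9.27 times in oligodendrocyte precursors and 0.852 to 2.25 times in microglia, where it was above in 2 of 3 libraries. Abca1 in microglia was 10.6 to 28.3 times the erythroid level and Lrp1 in excitatory neurons 1.62 to 12.9 times, above it in all 3 libraries. Without rank 4 replicate 1, these ranges over 2 libraries were 15.2 to 18.7 times and 5.33 to 9.27 times for Apoe in astrocytes and precursors, 10.6 to 13.8 times for Abca1 in microglia, and as before for Apoe in microglia and Lrp1 in excitatory neurons.

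The 3 genes with the most alike pattern were looked for by Pearson's r of log2(mean CPM + 10) over the 12 named classes without erythroid cells, among 8347 genes reaching 50 CPM in a class. Among the carriers, Apoe was closest to Jtb (r = 0.93), Mrpl24 (r = 0.88) and Bbip1 (r = 0.87), Clu to Slc6a11 (r = 0.98), Mfap3l (r = 0.97) and Sfxn5 (r = 0.97), and Apod to Ctsk (r = 0.97), Abca8a (r = 0.95) and Ptgds (r = 0.94). Abca1 was closest to Jtb (r = 0.87), Jmjd1c (r = 0.87) and Tmem176b (r = 0.86), Lpl to Thbs1 (r = 0.92), Trp53i11 (r = 0.88) and Ptgis (r = 0.87), and Lrp1 to Ptcd2 (r = 0.89), Fndc3a (r = 0.87) and Ostc (r = 0.87). Of the binding proteins, Fabp7 was closest to Ptprz1 (r = 0.96), Gpr37l1 (r = 0.95) and Chpt1 (r = 0.94), Fabp5 to Slc35a2 (r = 0.95), Ephb1 (r = 0.93) and 4930402H24Rik (r = 0.92), and Dbi to Metrn (r = 0.97), Nat8f1 (r = 0.91) and Arhgef19 (r = 0.88). Without the thinly filled fibroblasts and perivascular macrophages, an alternative added after seeing the data, 10 classes remained and most of these names changed. Apoe was then closest to Psph (r = 0.97), Il18 (r = 0.96) and Naxe (r = 0.95), and Apod to Cers2 (r = 0.94), Mal (r = 0.94) and Rnf7 (r = 0.93), the last 3 highest in oligodendrocytes. Abca1 was closest to Rin2 (r = 0.94), Lpl to Slmap (r = 0.93), Lrp1 to Cnot4 (r = 0.95), Fabp7 to Sox21 (r = 0.97) and Fabp5 to Ephb1 (r = 0.96). Clu had Slc6a11 and Dbi had Metrn as the closest gene in both. The classes of a library share its depth and free RNA, and these values are a description.

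Within astrocytes, cells with a UMI of Gfap, the intermediate filament of fibrous and reactive astrocytes, were set beside the other astrocytes of the same library at the same 1000 UMIs per cell. The 6 libraries with at least 20 such cells had 22 to 69 of them. Apoe was higher in the cells with Gfap in 6 of 6 libraries, at 22696 ± 4839 CPM with and 20164 ± 4618 CPM without a Gfap UMI (SD, n = 6), a log2 ratio of 0.081 to 0.33. Clu was higher in 6 of 6, at 4026 ± 760.3 CPM with and 3375 ± 679 CPM without a Gfap UMI (SD, n = 6), a log2 ratio of 0.034 to 0.60. Fabp5 was higher in 5 of 6 (819 ± 305 against 571 ± 204 CPM), Dbi in 5 of 6 and Fabp7 in 4 of 6. The higher values were thus small for Apoe and Clu and held in every library tested, while those of Fabp7 and Dbi had libraries on both sides. Apod, Abca1, Lpl and Lrp1 came to a few UMIs in these cells, and no order is read from them. No test was made, since cells of a library are not replicates. Microglia with a UMI of the chemokines Ccl3 or Ccl4 gave no such order for Apoe, higher in 2 of 6 libraries, nor for Dbi, higher in 3 of 6. Clu was higher there in 5 of 6 (262 ± 163 against 221 ± 120 CPM), a log2 ratio of -0.12 to 0.51. Fabp7 was higher in 4 of 6 and Fabp5 in 2 of 6.

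**Figure D3:**
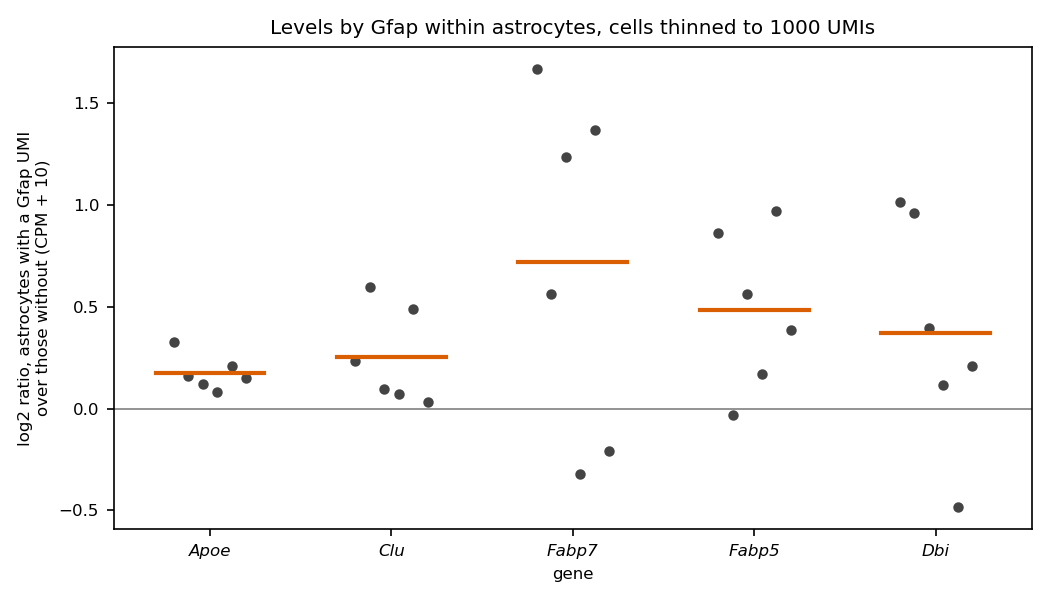
Log2 ratio of the level in astrocytes with a Gfap UMI over that in the other astrocytes of the same library (10 CPM added to both), for Apoe, Clu, Fabp7, Fabp5 and Dbi, with 1 point per library. The points of Apoe and Clu lie above 0 in 6 of 6 libraries, and those of Fabp7, Fabp5 and Dbi on both sides of 0.

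Several of these genes moved with the replicate number, in the same way in both ranks. Replicates 2 and 3 of both ranks were the 4 libraries with the fewest UMIs (at most 8379003, the others at least 12600414), a split chosen after seeing the data. Of 60 pairs of gene and class, 19 had no overlap between those 4 libraries and the other 6, 6 of them higher and 13 lower in the 4. Over all genes, 30.3% of the pairs had no overlap (14.9% higher and 15.4% lower), so the share among the 9 genes is near that of all genes. Dbi in astrocytes held 3849 to 4918 CPM in those 4 and 863 to 1925 CPM in the other 6. Clu in astrocytes held 4462 to 5566 CPM in those 4 and 2859 to 3474 CPM in the other 6. Fabp7 in oligodendrocyte precursors held 1244 to 1471 CPM in those 4 and 388 to 656 CPM in the other 6, while Lrp1 in the same cells was the lower, with 315 to 358 CPM in those 4 and 490.2 to 789.6 CPM in the other 6. The genes higher in the 4 were Clu, Fabp7 and Dbi, in astrocytes, oligodendrocyte precursors or oligodendrocytes. The 4 libraries also had a median of 3.90 to 4.50% mitochondrial UMIs, beside 6.06 to 10.8% in 5 of the other 6 and 3.49% in rank 4 replicate 5. All 4 carry the earlier Cell Ranger version, as do 2 of the other 6, both of them replicate 1. The part of depth, mitochondrial share and version in these differences was not tested.

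Between the ranks, none of the 9 genes passed the test in any class when libraries were not paired. UMIs were summed per library and class and tested with edgeR's quasi-likelihood test, with the Cell Ranger version as covariate and Benjamini-Hochberg adjustment over all 63792 tests of gene and class in 9 classes. It called 0 of them (0%), with 1474 (2.31%) at an unadjusted p under 0.05, and DESeq2 called 0 with 1157 unadjusted. The 9 genes gave 64 tests, while 17 further pairs of gene and class were under the filter on low counts. None was called, 1 had an unadjusted p under 0.05 in edgeR and 0 in DESeq2. Rank 1 was the lower in 38 of the 64 and the higher in 26, beside 50.9% lower over all tests. Rank 1 and rank 4 libraries overlapped in all 64, and 0.248% of all tests had no overlap. In summed cells, fewer cells with the RNA and less RNA per cell cannot be told apart.

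In the class where each gene was highest among those in which it could be tested, the log2 difference of rank 1 minus rank 4 was within 2 SE of 0 for all 9. For the carriers it was 0.072 (SE 0.28) for Apoe and 0.13 (SE 0.23) for Clu in astrocytes, and -0.032 (SE 0.31) for Apod in oligodendrocytes. For export, hydrolysis and uptake it was 0.34 (SE 0.28) for Abca1 in microglia, 0.18 (SE 0.15) for Lpl in excitatory neurons and 0.10 (SE 0.20) for Lrp1 in oligodendrocyte precursors. For the binding proteins it was 0.065 (SE 0.27) for Fabp7 and -0.26 (SE 0.29) for Dbi in oligodendrocyte precursors, and -0.22 (SE 0.27) for Fabp5 in astrocytes. Each adjusted p was 1.00 (edgeR's quasi-likelihood test, Benjamini-Hochberg), which does not show that the ranks were alike. Some differences that were not called had the same sign in all 5 pairs of like number. They were lower in rank 1 for Dbi and Fabp5 in astrocytes and Fabp5 in oligodendrocytes. They were higher in rank 1 for Apoe in oligodendrocytes, Lpl in excitatory neurons, and Lrp1 in microglia and oligodendrocyte precursors. Over all classes where they could be tested, the carriers ran from -0.73 in inhibitory neurons to 0.41 in smooth muscle cells for Apoe (9 classes), from -0.40 in oligodendrocytes to 0.24 in smooth muscle cells for Clu (9 classes) and from -0.29 in astrocytes to 0.93 in microglia for Apod (7 classes). The genes of export, hydrolysis and uptake ran from -0.23 in excitatory neurons to 0.44 in inhibitory neurons for Abca1 (6 classes), from -0.18 in inhibitory neurons to 0.18 in excitatory neurons for Lpl (2 classes) and from -0.79 in endothelial cells to 0.51 in microglia for Lrp1 (7 classes). The binding proteins ran from -0.19 in pericytes to 0.29 in microglia for Fabp7 (6 classes), from -0.35 in pericytes to 1.15 in smooth muscle cells for Fabp5 (9 classes) and from -0.72 in inhibitory neurons to -0.029 in smooth muscle cells for Dbi (9 classes). In smooth muscle cells the sign of Apoe and Clu turned with the replicate block, which left 3 pairs there (Apoe -0.69, Clu -0.82). Of these differences Dbi in inhibitory neurons alone had an unadjusted p under 0.05 in edgeR.

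**Figure D4:**
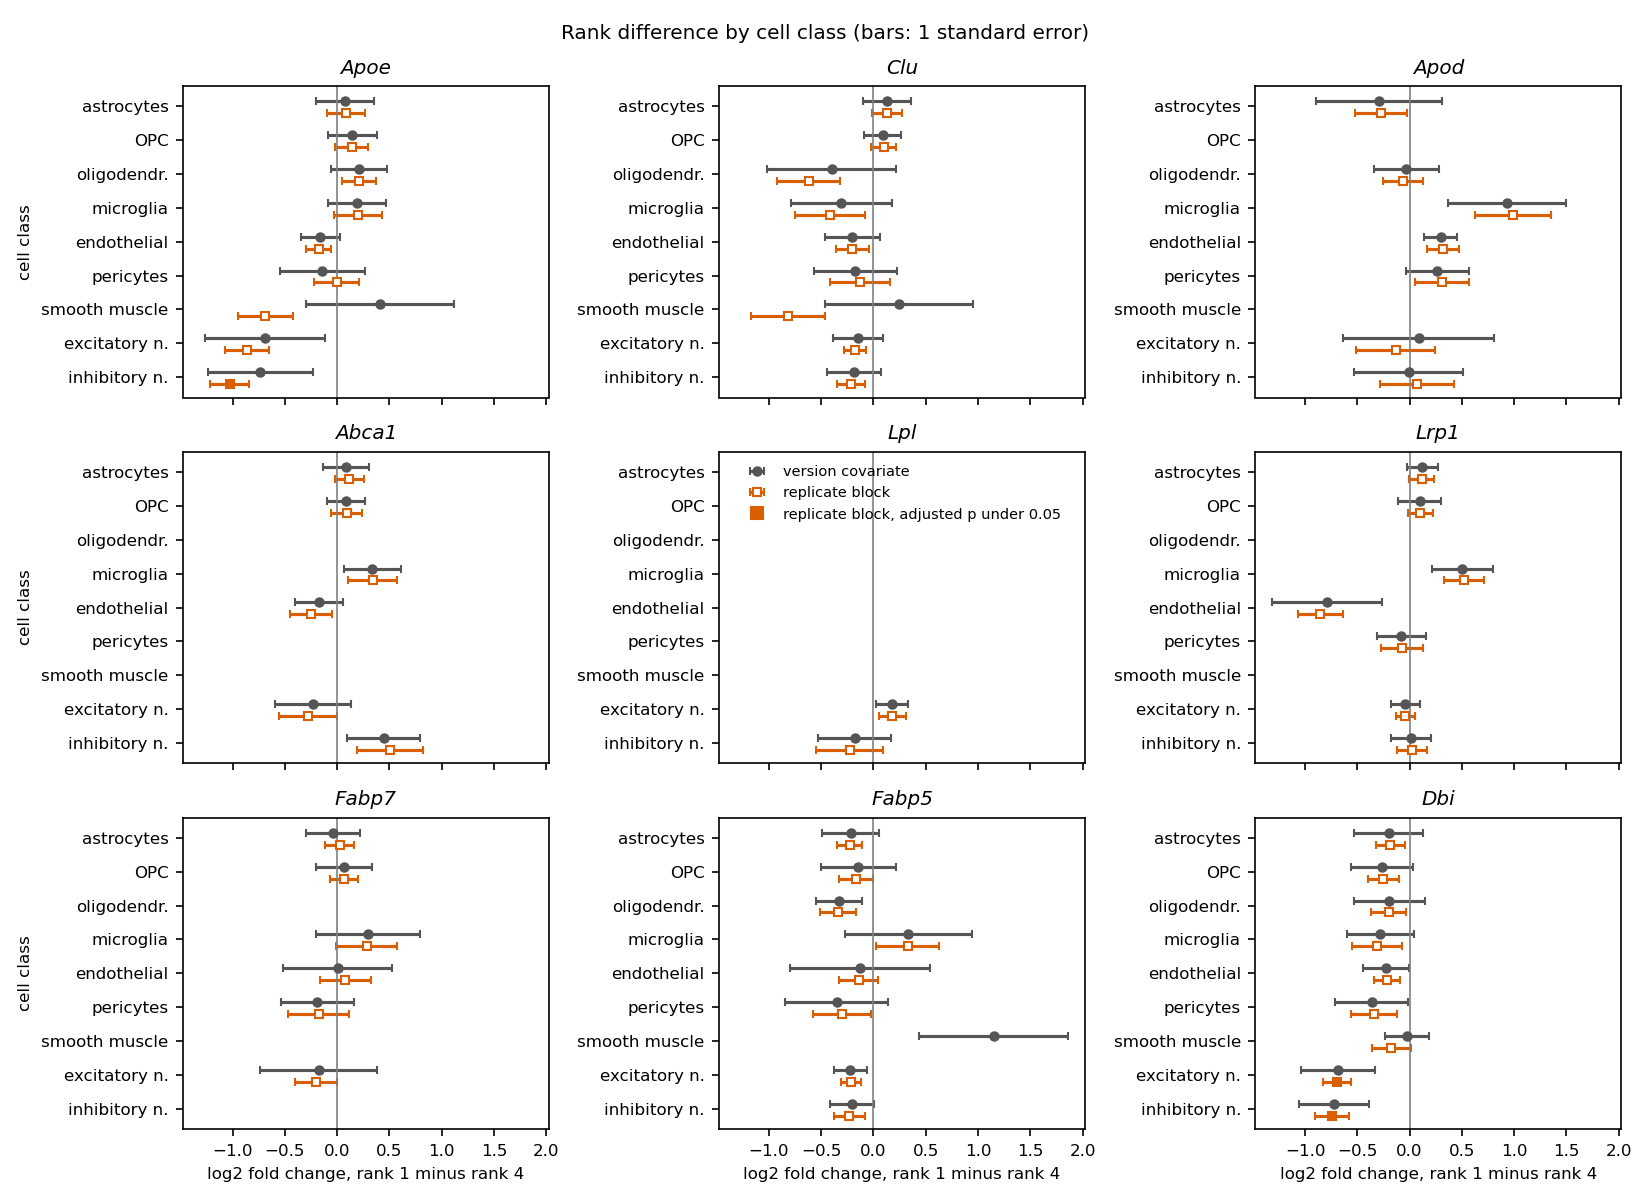
Log2 difference (rank 1 minus rank 4, ± SE) of the 9 genes in the tested classes from edgeR, with the Cell Ranger version as covariate (grey circles) and with the replicate number as block (orange squares), filled where the adjusted p is under 0.05. Only 3 symbols are filled, Apoe and Dbi in inhibitory neurons and Dbi in excitatory neurons, all under the block and all below 0.

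Once libraries of like number were compared as pairs, 3 tests of the 9 genes were called, all in neurons. With the replicate number as block, edgeR's quasi-likelihood test called 198 of 64089 tests (0.309%), 32 higher and 166 lower in rank 1, and 10.3% had an unadjusted p under 0.05. Of the 65 tests of the 9 genes it called 3: Apoe and Dbi in inhibitory neurons and Dbi in excitatory neurons, all lower in rank 1. Over all genes, neurons did not have the highest share of calls: 0.712% of tests were called in astrocytes, 0.495% in endothelial cells, 0.382% in excitatory and 0.209% in inhibitory neurons, 0.159% in smooth muscle cells, 0.108% in oligodendrocyte precursors, 0.0326% in microglia, 0.0258% in pericytes and 0% in oligodendrocytes.

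Apoe in inhibitory neurons held 1071, 205, 135, 112 and 576 CPM in rank 1 replicates 1 to 5 and 1439, 386, 595, 466 and 710.0 CPM in rank 4. Replicates 1 and 5 were the highest in both ranks, the ranks overlapped, and rank 1 was the lower in all 5 pairs. The log2 difference was -1.03 (SE 0.19, adjusted p 0.0144) under the block and -0.73 (SE 0.50, unadjusted p 0.161) with the version covariate, both from edgeR's quasi-likelihood test with Benjamini-Hochberg adjustment over all tests. Apoe in excitatory neurons held 722, 185, 119, 103 and 452 CPM in rank 1 and 1033, 165, 409, 381 and 559 CPM in rank 4, lower in rank 1 in 4 of 5 pairs, with replicate 2 the exception. Its blocked log2 difference in edgeR was -0.86 (SE 0.21, adjusted p 0.0926) and missed the threshold. Dbi in inhibitory neurons held 232, 134, 78.2, 56.5 and 154 CPM in rank 1 and 458, 161, 235, 118 and 169 CPM in rank 4, lower in rank 1 in 5 of 5 pairs. Its log2 difference in edgeR was -0.74 (SE 0.16, adjusted p 0.0367) under the block and -0.72 (SE 0.33, unadjusted p 0.0430) with the covariate. Dbi in excitatory neurons held 203, 97.7, 88.8, 53.5 and 134 CPM in rank 1 and 367, 105, 201, 118 and 149.9 CPM in rank 4, again lower in rank 1 in 5 of 5 pairs with overlapping ranks. Its log2 difference in edgeR was -0.69 (SE 0.14, adjusted p 0.0416) under the block and -0.68 (SE 0.35, unadjusted p 0.0782) with the covariate.

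These 3 calls depended on which pairs were in the blocked edgeR fit. Without pair 1, 2, 3, 4 or 5 in turn, Apoe in inhibitory neurons had an adjusted p 0.0106, 0.0256, 0.142, 0.0750 and 0.000334, so its call was lost without pair 3 or pair 4 and held without pair 1, which holds the library that stood apart. Dbi in inhibitory neurons had an adjusted p 0.226, 0.0320, 0.207, 0.109 and 0.00344, and Dbi in excitatory neurons an adjusted p 0.157, 0.0216, 0.176, 0.105 and 0.0108, both lost without pair 1, 3 or 4 in this edgeR fit. Within replicates 1 to 3, counted with the earlier Cell Ranger version, the log2 difference was -0.69 for Apoe and -0.92 for Dbi in inhibitory neurons and -0.79 for Dbi in excitatory neurons. Within replicates 4 and 5 these were -0.75, -0.42 and -0.49, below 0 in both batches, with no call in either. Without pairing, single libraries moved the edgeR log2 differences by over 1.5 times: Apoe in inhibitory neurons came to -0.32 when rank 4 replicate 1 was left out and to -1.55 and -1.16 when rank 1 replicate 1 or 5 was. With rank 4 replicate 1 left out, Dbi came to -0.36 in inhibitory and -0.34 in excitatory neurons, and Apoe in excitatory neurons to -0.20 (and to -1.34 with rank 1 replicate 1 left out).

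Astrocyte markers were summed in the same neurons, and were lower in rank 1 in all pairs in inhibitory but not in excitatory neurons. The 10 astrocyte markers summed to 731, 289.9, 263, 239 and 471 CPM in inhibitory neurons of rank 1 and to 1086, 571, 651, 596 and 592 CPM in those of rank 4, lower in rank 1 in 5 of 5 pairs. Of the 5 markers tested there, 5 had a lower value in rank 1 and 3 were called lower by edgeR under the block. In excitatory neurons the sum was 818, 320.3, 304, 748 and 1323 CPM in rank 1 and 993, 300.4, 532, 1296 and 1049 CPM in rank 4, lower in 3 of 5 pairs, with 10 of 10 markers lower and 0 called. None of the astrocyte markers was at 0 in all libraries of either neuron class. The 9 oligodendrocyte markers summed to 70.7 to 705 CPM (median 110.1) in inhibitory neurons of rank 1 and 88.4 to 1007 CPM (median 434) in those of rank 4, lower in rank 1 in 4 of 5 pairs, with 4 of 6 tested markers lower under the block. In excitatory neurons they summed to 118 to 654 CPM (median 163) and 113 to 812 CPM (median 456), lower in 3 of 5 pairs, with 9 of 9 lower under the block and 4 of 9 with the version covariate; none was at 0 in all libraries of either class. The 7 markers of oligodendrocyte precursors summed to medians of 77.8 CPM in rank 1 and 80.4 CPM in rank 4 in inhibitory neurons, lower in 3 of 5 pairs, with 0 of 4 tested markers lower under the block. In excitatory neurons the medians were 42.1 and 65.9 CPM, lower in 3 of 5 pairs, with 5 of 7 lower. In neither neuron class was any marker of oligodendrocytes, precursors, microglia, endothelial cells, pericytes or fibroblasts that could be tested called by the blocked edgeR fit. Only 1 pericyte and 3 microglia markers could be tested in inhibitory neurons. Their sums there were lower in rank 1 in 4 of 5 pairs (medians 23.3 against 59.1 CPM and 160 against 171 CPM), that of endothelial markers in 1 of 5. In excitatory neurons these sums were each lower in 3 of 5 pairs. Within the 3 libraries with erythroid cells, Apoe was 0.314 to 0.756 times the erythroid level in excitatory and 0.399 to 1.12 times in inhibitory neurons, and Dbi 0.605 to 0.972 times and 0.682 to 1.11 times. Both genes were thus at or below the erythroid level in excitatory neurons in 3 of 3 libraries and in inhibitory neurons in 2 of 3; without rank 4 replicate 1 these were 2 of 2 and 1 of 2. The part of RNA from astrocytes, oligodendrocytes or the other classes in the difference by rank was not tested. Over all kept cells, Apoe spanned 2762 to 5439 CPM in rank 1 and 3037 to 7162 CPM in rank 4, lower in rank 1 in 3 of 5 pairs. Dbi over all kept cells held 769, 947, 1039, 215 and 436 CPM in rank 1 and 958, 1067, 1946, 280.5 and 570.4 CPM in rank 4, lower in rank 1 in 5 of 5 pairs.

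**Figure D5:**
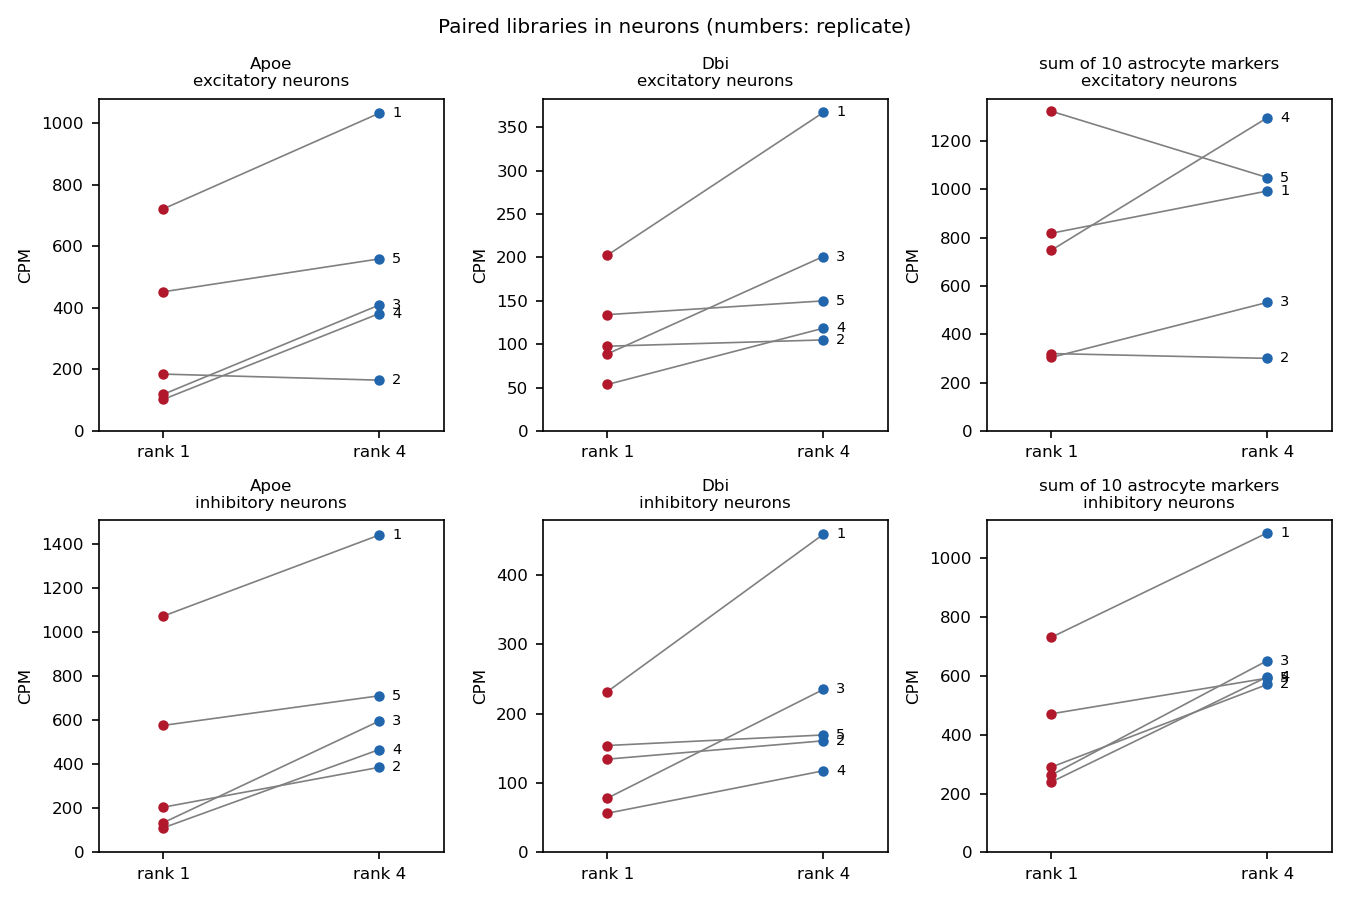
Apoe, Dbi and the sum of 10 astrocyte markers (CPM) in excitatory and inhibitory neurons, with the libraries of like number in rank 1 and rank 4 joined by a line. In inhibitory neurons all 5 lines of Apoe, of Dbi and of the marker sum are lower at rank 1.

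The other genes of lipid carriage gave no call either with the version covariate. This held for receptors and uptake (89 tests of 18 genes, 48 higher and 41 lower in rank 1, median log2 difference 0.052), apolipoproteins, lipases and transfer proteins (54 tests of 21 genes, 31 higher and 23 lower in rank 1, median log2 difference 0.042), and cholesterol export and its regulators (139 tests of 25 genes, 80 higher and 59 lower in rank 1, median log2 difference 0.042). It also held for cholesterol synthesis (120 tests of 20 genes, 47 higher and 73 lower in rank 1, median log2 difference -0.067) and fatty acid carriers, activation, oxidation and desaturation (215 tests of 42 genes, 119 higher and 96 lower in rank 1, median log2 difference 0.036). The median over all tests was -0.0051 and that of the 9 genes -0.10. At an unadjusted p under 0.05 edgeR gave 3, 1, 3, 2 and 3 tests in these lists in the same order, beside 2.31% of all tests. The smallest unadjusted p values were those of Acaca, the first enzyme of fatty acid synthesis, in oligodendrocyte precursors (0.77, SE 0.22), Mttp, the microsomal transfer protein that lipidates apolipoprotein B, in excitatory neurons (0.57, SE 0.16) and Srebf1, a regulator of lipid synthesis genes, in astrocytes (0.50, SE 0.15), each with an adjusted p of 1.00 in edgeR. Srebf1 in astrocytes held 127, 163, 168, 153 and 145 CPM in rank 1 and 96.4, 115, 111, 115 and 93.5 CPM in rank 4, with no overlap between the ranks, as in 0.248% of all tests. Mttp in excitatory neurons held 20.50 to 53.14 CPM in rank 1 and 14.97 to 29.11 CPM in rank 4. It was the 1 list gene called under the block in edgeR (log2 difference 0.57, SE 0.12, adjusted p 0.0443). The lists had 90, 56, 142, 122 and 215 blocked tests in the same order, and 0.309% of all blocked tests were called. Without pair 1, 2, 3, 4 or 5 the blocked edgeR adjusted p of Mttp was 0.198, 0.0333, 0.117, 0.0830 and 0.0730, so the call held only without pair 2.

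Whether the difference by rank was the same in the 2 classes where a gene was highest, out of the 9 classes with enough libraries, was put to an exact two-sided permutation test of rank labels over libraries, for 9 genes. Of these 9 tests, 0 passed after Benjamini-Hochberg adjustment, 0 had an unadjusted exact p under 0.05, and every adjusted p was 0.921, where the smallest p that 5 libraries against 5 allow is 0.00794. For Lpl these were smooth muscle cells, where its counts were under the filter of the edgeR fit, and excitatory neurons, over 4 libraries against 4, which allow no p below 0.0286. The difference between classes ran from -0.48 (Apod, oligodendrocytes minus pericytes) to 0.23 (Abca1, microglia minus oligodendrocyte precursors) on the log2 scale.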

How the data were processed

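The authors deposited raw UMI counts per gene and barcode for each of the 10 libraries, made with Cell Ranger 4.0.0 on mm10 per the submitters' processing notes; the file headers name version 3.1.0 for replicates 1 to 3 and 4.0.0 for replicates 4 and 5 of both ranks, so this version was a covariate. The 30406 genes in both gene lists were used. Barcodes with at least 500 genes and at most 15% mitochondrial UMIs were kept, and 2376 were removed as doublets by a score against simulated pairs, with the median threshold of the other libraries in 4 libraries whose own marked too few. Cells were clustered on 2000 variable genes and 30 principal components (Leiden, resolution 1, leidenalg 0.10.2, igraph 0.11.9), and clusters of at least 100 cells were named from marker lists by a score with a minimum lead. Counts summed per library and class, with at least 20 cells and 3 libraries per rank, were tested in edgeR 4.0.16 (R 4.3.3), quasi-likelihood, TMM, version plus rank, with Benjamini-Hochberg adjustment over all genes and classes. DESeq2 1.42.0 was the second tool, and numpy 2.4.6, scipy 1.17.1 and pandas 2.3.3 did the rest. On simulated astrocyte counts with 200 of 10524 to 10568 genes changed, the edgeR fit recovered 0% at a log2 change of 0.5, 50% at 1 and 100% at 2.

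Libraries of like number deviated together, with a correlation of their deviations from the rank means of 0.58 to 0.79 in the 5 pairs. Of these, 3 of 5 were closest to their own number. These values also hold the version, which libraries of like number share. Once the version is removed, they were -0.37 to 0.77, with pairs 4 and 5 below 0 and 2 of 5 closest. The pairs are taken as paired on the first values only, and blocked values are printed beside the results they change. The labels do not say what a number marks. P-values without the block measure the spread between pooled libraries, and those under the block the spread of the differences within pairs.

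The 9 genes, the other lists and the tests were chosen with earlier results of these data known. Named in the text are the 9 genes, the genes of the lipid lists with the smallest unadjusted p in the lists (the first 3), list genes called under the block, and the most alike genes. Alternatives were the size factors, the tool, the filters on counts and cells, the covariates, the cluster resolution, each library left out and each version batch. The blocked fit without each pair, the most alike genes over fewer classes and the erythroid comparisons without 1 library were added after seeing the data.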

Additional observations from a re-analysis of the deposited data

Results flagged for a closer look

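Single libraries far from the others of their rank were looked for in 128 groups of 4 or 5 library values of the 9 genes by class, where chance alone gives about 1 in 20, or about 6, and 2 were found. Apod in inhibitory neurons was at 0 CPM in rank 4 replicate 2, the lowest, with the others at 12.9 to 28.0 CPM. Lpl in inhibitory neurons was at 2.63 CPM in rank 4 replicate 1, the library that stood apart in mitochondrial UMIs, with the others at 14.0 to 17.5 CPM. Both rest on few UMIs, and their cause was not tested.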

How the results depend on the processing

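With the version covariate edgeR called 0 tests and 0 of the 9 genes; it called 48 and 0 without the filter on low counts, 0 to 1 and 0 without each library in turn, and 0 under DESeq2 size factors, the DESeq2 test, no covariate, at least 50 cells, the stricter cell filter, the coarser clusters and within either version batch. The replicate block gave 198 and 3, and 27, 300, 26, 121 and 129 tests without pairs 1 to 5, 1, 5, 0, 0 and 3 of them tests of the 9 genes. The log2 difference of these named tests changed sign. Apoe in astrocytes, at 0.072 as reported, gave -0.073 (within replicates 4 and 5), -0.040 to 0.20 without each library. Apod in oligodendrocytes, at -0.032 as reported, gave 0.55 (stricter cell filter) and 0.10 (within replicates 4 and 5), -0.42 to 0.11 without each library, 0.061 and 0.080 under the block without pairs 1 and 4. Abca1 in microglia, at 0.34 as reported, gave -0.0047 (stricter cell filter) and -0.048 (within replicates 1 to 3). Lrp1 in oligodendrocyte precursors, at 0.10 as reported, gave -0.030 to 0.26 without each library. Fabp7 in oligodendrocyte precursors, at 0.065 as reported, gave -0.10 to 0.22 without each library, -0.071 under the block without pair 4. Fabp5 in oligodendrocytes, at -0.33 as reported, gave 0.093 (stricter cell filter). Apoe in smooth muscle cells, at 0.41 as reported, gave -0.69 (replicate block) and -1.004 (stricter cell filter), -0.58 to 0.84 without each library, -0.69, -1.22, -0.32, -0.69 and -0.49 under the block without pairs 1, 2, 3, 4 and 5. Clu in smooth muscle cells, at 0.24 as reported, gave -0.82 (replicate block), -0.82 to 0.74 without each library, -0.82, -1.25, -0.60, -0.82 and -0.61 under the block without pairs 1, 2, 3, 4 and 5. Apod in astrocytes, at -0.29 as reported, gave 0.14 (within replicates 4 and 5), -0.81 to 0.26 without each library, 0.061 under the block without pair 4. Abca1 in excitatory neurons, at -0.23 as reported, gave -0.49 to 0.019 without each library, 0.10 under the block without pair 4. Abca1 in inhibitory neurons, at 0.44 as reported, gave -0.15 to 0.68 without each library. Fabp7 in pericytes, at -0.19 as reported, gave 0.38 (within replicates 4 and 5), -0.40 to 0.32 without each library. Fabp5 in pericytes, at -0.35 as reported, gave -0.88 to 0.14 without each library. Dbi in smooth muscle cells, at -0.029 as reported, gave 0.017 (no covariate), -0.16 to 0.065 without each library, 0.015 under the block without pair 3. No adjusted p of these was under 0.05 in edgeR or DESeq2, and the cause was not tested. The other 22 tests of gene and class recomputed, out of 36, kept their sign, though their size moved: Apoe ran from -1.55 to -0.32 in inhibitory and from -1.34 to -0.20 in excitatory neurons over all alternatives, and Dbi from -1.05 to -0.36 and from -0.93 to -0.34. Beside the 3 tests of the 9 genes and Mttp, the block over all pairs changed no call among those named, and without pair 2 Apoe in excitatory neurons (edgeR adjusted p 0.0310) and Lrp1 in endothelial cells (0.0471) also passed. Levels moved by less than 1 SD except Fabp5 in committed precursors, at 1369.8 CPM with the stricter filter and 1242 CPM with at least 50 cells, from 479 CPM. The tests between classes passed none under the size factors, other priors, the replicate block or without each library. Depth limits Lpl, Apod and Abca1 outside their leading classes, and astrocyte changes near a log2 of 0.5 were out of reach in simulation.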
